A study of Mus musculus with 28 samples.

Results

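The genes described here are 10 transcription factors known from effector and tissue Treg cells, *Batf*, *Irf4*, *Prdm1*, *Runx2*, *Runx3*, *Bhlhe40*, *Nfil3*, *Id2*, *Tox* and *Zbtb32*, out of 53801 features measured. They were chosen by gene symbol as a list of such factors, and *Runx2* was put on it because its level was already known to be high in GBM Treg cells in these data. The differences between GBM and spleen are therefore given for these 10 genes as a description, without a test. The list has no threshold of its own, and all 10 symbols were found in the table. The libraries are of Treg cells sorted as TCR+CD4+CD25hi CD127lo cells, with CD8+ cells dumped, from mice bearing orthotopic CT2A tumors, a murine GBM line implanted in the forebrain. Once tumors measured 2 mm3, the mice received 4 doses of 250 µg, 3 days apart, of either IgG2a, the isotype control, or αPD1 + αGITR, which combines an antibody to the inhibitory receptor PD1 with an agonistic antibody to GITR, and organs were taken 2 days after the last dose. The groups were splenic Treg cells after IgG2a (n = 7) and after αPD1 + αGITR (n = 8), and GBM Treg cells after IgG2a (n = 5) and after αPD1 + αGITR (n = 7). Every mouse carried a tumor, so the spleens are those of tumor-bearing mice, and αPD1 and αGITR were given only together. The labels of these libraries give no strain, sex or age.

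Treg cells leave their resting state when they are stimulated through the T cell receptor in tissues and tumors, and they then switch on a second layer of transcription factors beneath FoxP3. BATF and IRF4 bind DNA together at composite sites and open the effector programme, and Blimp-1, the product of *Prdm1*, acts downstream of them and is tied to IL-10 expression. RUNX proteins bind DNA with the partner CBFβ, ID2 blocks E proteins such as those encoded by *Tcf3* and *Tcf12*, and BHLHE40, NFIL3, TOX and ZBTB32 are regulators induced by activation.

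RefSeq promoter windows of GRCm38.p6, which run from 250 bases before to 50 bases after a start site, were matched by symbol for 8 of the 10 factors, and these had 10 windows. *Bhlhe40* and *Tox* were not matched. The windows were searched on both strands for the letters of sites that the factors themselves are known to bind. The core bound by RUNX proteins, TGTGGT, which reads ACCACA when it lies on the other strand, was found in 4 of the 10 windows, those of *Batf*, *Runx2*, *Runx3* (1 of its windows) and *Zbtb32* (1 of its windows), and in 16.8% of all 32851 windows. TGANTCA, the AP-1 type site that BATF binds with JUN proteins, was found in 1 of the 10, that of *Prdm1*, and in 7.81% of all windows. The IRF repeat, GAAA and again GAAA after any 2 bases, was in 0 of 10 and 3.44% of all, the NFIL3 site TTACNTAA in 0 of 10 and 2.32% of all, composites of an AP-1 type site with an IRF half-site, in both spacings searched (joined and 4 bases apart), in 0 of 10 and in 0.125% (joined) and 0.119% (apart) of all, and the E-box CACGTG, which BHLHE40 binds, in 0 of 10 and 7.15% of all. The stretches of 30 bases around the match farthest upstream in each window are shown 5′ to 3′ on the strand of the gene, with the match in capitals, to show where letters that members of the list are known to bind stand before other members or themselves:
*Runx2*, chr17:44814690-44814719, minus strand, match starting 80 bases before the start site: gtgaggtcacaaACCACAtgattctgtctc
*Runx3*, chr4:135120499-135120528, plus strand, 134 bases before: tctggtccctcaACCACAgaaccacaaggc
*Batf*, chr12:85686559-85686588, plus strand, 149 bases before: ttcacctaattcTGTGGTcttttcccagat
*Zbtb32*, chr7:30593152-30593181, minus strand, 227 bases before: aaagtccctgtcACCACAggttcacatctt
*Prdm1*, chr10:44458778-44458807, minus strand, 48 bases before: gctggtaggagTGAATCAgaccgtcagtat
The shares were not tested, and a match describes the letters in these windows only, since binding was not measured.

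Values are TPM, which are scaled to gene length and to the same total in each library, and differences are of mean log2(TPM + 1). The read depth behind them is unknown. The defining genes of the sorted cells were found in every library (*Foxp3* was listed at 21.5 TPM or more and *Cd3e* at 16.4 TPM or more). The summed level of 8 T cell and Treg marker genes ran from 230 to 2330 TPM in spleen and from 1250 to 3180 TPM in GBM. The summed level of 14 macrophage and microglia genes was 4950 TPM in GBM IgG2a library 79_a and 1950 TPM in GBM αPD1 + αGITR library 73_a, against 37.7 to 302 TPM in the other GBM libraries. In the spleens that sum ran from 22.0 to 285 TPM. Of the 14 genes, 11 had a higher median in GBM than in spleen after IgG2a and 10 after αPD1 + αGITR, among them *C1qa* (14.6 and 26.4 TPM in GBM, 0.73 and 4.29 in spleen) and *Cx3cr1* (18.8 and 15.7 TPM in GBM, 0 and 2.04 in spleen), while *Adgre1* and *Itgam* had medians of 0 to 0.23 TPM in each group. Of the CD8 genes, *Cd8a* had medians of 0.53 to 2.60 TPM, and *Cd8b1* had medians of 6.31 and 7.42 TPM in GBM and of 0.78 and 2.31 TPM in spleen, with a highest value of 36.3 TPM. The part of such cells in the differences between tissues was not tested. In another GBM IgG2a library 7702 genes exceeded 1 TPM, the fewest of all, and it is called the gene-poor library below. In bulk RNA, fewer cells that express a gene and less RNA per cell cannot be told apart.

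*Runx2*, on GRCm38 chromosome 17 from 44495987 to 44814797, was the most abundant of the 10 factors in GBM Treg cells and was at low levels in most spleens. It was listed at 113, 206, 129, 42.9 and 80.3 TPM in the GBM libraries after IgG2a (76_a, 77_a, 78_a, 79_a and the gene-poor one). After αPD1 + αGITR the GBM libraries ran from 90.5 to 328 TPM with a median of 177. In spleen the lowest, median and highest values were 0.84, 2.10 and 28.7 TPM after IgG2a and 0.56, 2.04 and 55.4 TPM after αPD1 + αGITR. Each GBM library thus lay above each splenic library of the same treatment, but the spleens fell apart, since 1 library after IgG2a (79_b) and 3 after αPD1 + αGITR (70_b, 73_a and 80_a, from 17.2 to 55.4 TPM) stood well above the others. The log2 difference between GBM and spleen was 4.72 (standard error 0.63) after IgG2a and 4.83 (standard error 0.83) after αPD1 + αGITR.

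**Figure D1:**
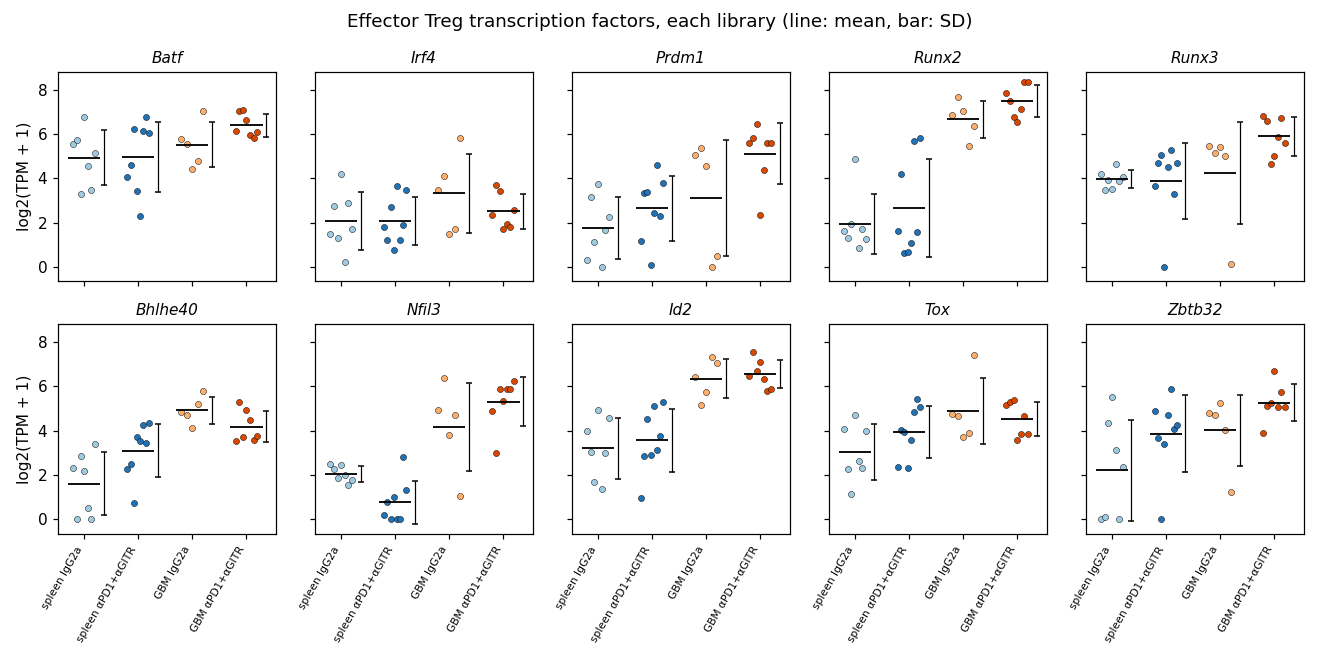
Level of each of the 10 factors, as log2(TPM + 1), in every library of the 4 groups (1 point per library, line at the mean, bar for the SD). *Runx2* and *Id2* lie higher in GBM than in spleen in both treatment groups without overlap, *Nfil3* does so after αPD1 + αGITR and *Bhlhe40* after IgG2a, while the groups overlap for the other factors.

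The order of the factors changed with the tissue. In splenic Treg cells *Batf*, a basic leucine zipper factor without a transactivation domain of its own, had the highest mean level, with 40.1 ± 33.6 TPM (SD, n = 7) after IgG2a and 46.1 ± 37.7 TPM (SD, n = 8) after αPD1 + αGITR. In GBM Treg cells *Runx2* had the highest mean after either treatment, followed by *Id2* and then *Batf*. *Runx2* reached a mean of 114 ± 61.0 TPM (SD, n = 5) after IgG2a, against 92.3 ± 51.6 TPM for *Id2* and 55.5 ± 44.3 TPM for *Batf*. These neighbours were closer to each other than the spread between libraries after IgG2a. After αPD1 + αGITR *Runx2* stood further above *Id2* (7.50 against 6.54 in mean log2(TPM + 1), with SDs of 0.73 and 0.63), while *Id2* and *Batf* (6.39) lay within it. At the low end stood *Irf4*, with 17.3 ± 22.6 TPM after IgG2a and 5.54 ± 3.92 TPM after αPD1 + αGITR (SD, n = 7).

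All 10 factors had a higher mean in GBM than in spleen in both treatment groups, but only some of them by more than the genes of the T cell receptor complex. The mean of *Cd3e*, *Cd3d*, *Cd3g* and *Trac*, which encode parts of the T cell receptor complex, was itself 1.35 higher in GBM after IgG2a and 1.59 higher after αPD1 + αGITR on the log2 scale, whereas *Foxp3* was 0.30 and 1.19 higher. The median difference of the 10 factors was 1.84 after IgG2a and 1.72 after αPD1 + αGITR, beside 0.48 and 0.95 over all genes tested. After IgG2a 6 of the 10 factors differed by more than the T cell genes, and after αPD1 + αGITR 5 did. Groups without overlap were found for 3 of the 10 factors after IgG2a (*Runx2*, *Bhlhe40* and *Id2*), beside 1.25% of 7380 genes, and for 3 after αPD1 + αGITR (*Runx2*, *Nfil3* and *Id2*), beside 2.96% of 7506 genes, and nothing is read from these counts because the choice of the list used this contrast. When each library was expressed relative to its 4 T cell genes, the count became 1 (*Runx2*) after IgG2a and 0 after αPD1 + αGITR. The share of all genes without overlap was not counted under this scaling. Relative to the T cell genes the difference of *Runx2* was 3.37 (standard error 0.79) and 3.25 (standard error 0.95). The medians of the 10 factors were 0.49 and 0.13, beside -0.87 and -0.63 over all genes tested.

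**Figure D2:**
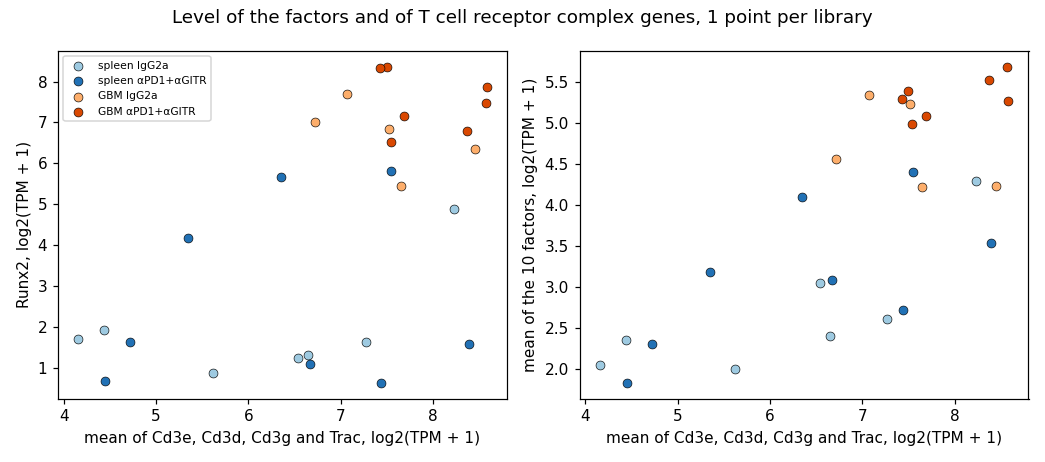
Level of *Runx2* (left) and mean of the 10 factors (right) against the mean of *Cd3e*, *Cd3d*, *Cd3g* and *Trac*, all as log2(TPM + 1), with 1 point per library in the colors of the 4 groups. The T cell genes ran from 4.16 to 8.39 in the spleens and from 6.72 to 8.58 in GBM, and *Runx2* was between 5.46 and 8.36 in GBM but between 0.64 and 5.82 in spleen.

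*Id2*, on chromosome 12 from 25093799 to 25097140, encodes an inhibitor of E proteins and was high in every GBM library. Its levels were 83.9, 35.2, 53.2, 157 and 132 TPM in the 5 GBM libraries after IgG2a, in the order given for *Runx2*, and from 54.5 to 186 TPM (median 88.1) after αPD1 + αGITR. In spleen it ran from 1.55 to 29.9 TPM (median 7.11) and from 0.97 to 38.0 TPM (median 10.2). The lowest GBM library after IgG2a, 35.2 TPM, stood close above the highest splenic one, 29.9 TPM. The macrophage-rich library 79_a had the highest *Id2* of its group, and the part of those cells in the level was not tested. The difference of *Id2* was 3.12 (standard error 0.65) after IgG2a and 2.98 (standard error 0.56) after αPD1 + αGITR, and relative to the T cell genes it was 1.77 and 1.39.

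*Nfil3* and *Bhlhe40* were each apart between tissues in 1 treatment group. This depends on the scaling, since after quantile normalization the factors apart were *Runx2*, *Nfil3* and *Id2* after IgG2a and *Runx2* and *Id2*, 2 factors, after αPD1 + αGITR. The share of all genes without overlap was not counted after quantile normalization, so nothing is read from these counts. *Nfil3*, on chromosome 13 from 52967209 to 52981073, encodes a basic leucine zipper repressor. Its levels in GBM were 29.3, 83.1, 12.9, 25.4 and 1.09 TPM after IgG2a, where the gene-poor library was the low library, and from 6.97 to 74.1 TPM (median 57.2) after αPD1 + αGITR. Its spleens ran from 1.88 to 4.56 TPM after IgG2a and from 0 to 6.12 TPM after αPD1 + αGITR, of which 3 were listed at 0. *Bhlhe40*, on chromosome 6 from 108660629 to 108666925, encodes a basic helix-loop-helix repressor that is induced by T cell receptor signals. In GBM after IgG2a it stood at 28.1, 24.8, 16.4, 35.8 and 53.7 TPM, above each of the spleens of that group (0 to 9.67 TPM). After αPD1 + αGITR its GBM libraries (10.6 to 38.3 TPM) and spleens (0.68 to 19.4 TPM) overlapped.

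The remaining 6 factors overlapped between tissues. After IgG2a their differences were 0.28 for *Runx3*, 0.59 for *Batf*, 1.24 for *Irf4*, 1.34 for *Prdm1*, 1.80 for *Zbtb32* and 1.87 for *Tox*, with standard errors between 0.65 and 1.28. After αPD1 + αGITR they were 0.42 for *Irf4*, 0.59 for *Tox*, 1.41 for *Zbtb32*, 1.43 for *Batf*, 2.00 for *Runx3* and 2.47 for *Prdm1*, with standard errors between 0.48 and 0.73. Relative to the T cell genes 4 of these 6 were negative after IgG2a, from -0.01 for *Prdm1* to -1.07 for *Runx3*, and 4 after αPD1 + αGITR, from -0.15 for *Batf* to -1.17 for *Irf4*. The median over all genes under this scaling was -0.87 after IgG2a and -0.63 after αPD1 + αGITR. *Irf4* did not pass the filter on low values after αPD1 + αGITR, since neither group had a mean above 10 TPM.

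**Figure D3:**
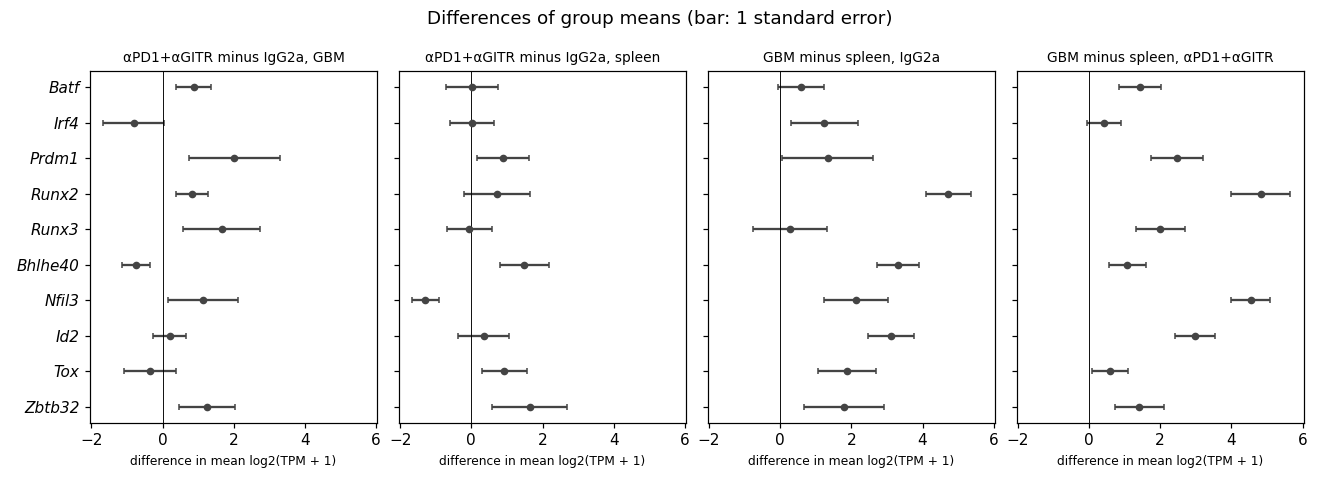
Difference of group means of log2(TPM + 1) for the 10 factors in 4 comparisons (points, with bars of 1 standard error from the spread within both groups). *Runx2* has the largest difference between tissues after either treatment, and the treatment differences within a tissue lie between -1.29 for *Nfil3* in spleen and 2.02 for *Prdm1* in GBM.

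Whether αPD1 + αGITR changed these factors within the tumor was tested with limma on the 5 GBM libraries after IgG2a and the 7 after αPD1 + αGITR. None of the 10 factors, all of which passed the filter on low values (a mean above 10 TPM in at least 1 group), reached an adjusted p under 0.05, as was the case for 0% of the 7848 genes tested (lowest adjusted p = 0.0947). At an unadjusted p under 0.05 with more than 2-fold change, the threshold for differentially expressed genes in the study, 1 factor was higher and 0 were lower, beside 16.8% of all genes higher and 4.87% lower. Over all genes an unadjusted p under 0.05 was reached by 1749, and the exact permutation test gave 0 after adjustment and 1916 before it. No factor had groups without overlap, beside 1.77% of all genes that were higher without overlap. The median difference was 0.85 for the 10 factors and 0.62 for all genes, and without the gene-poor library these were 0.47 and 0.36. The T cell genes were 0.47 and *Foxp3* 0.79 higher after αPD1 + αGITR. The shift of all genes depends on the scaling, with a median of 0.13 after quantile normalization, 0.34 with TMM-type factors and 0.15 relative to the T cell genes. The share of genes at this threshold that were higher was 77.5%, and 46.4%, 65.9% and 24.3% under these scalings.

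*Prdm1*, on chromosome 10 from 44437177 to 44528501, was the factor past the unadjusted threshold. The values were 32.1, 40.3, 22.5, 0 and 0.42 TPM in GBM after IgG2a and 46.8, 55.9, 87.8, 4.03, 19.9, 47.2 and 47.8 TPM after αPD1 + αGITR (70_a, 70_b, 72_a, 73_a, 73_b, 74_a and 80_a). The low libraries were both of the macrophage-rich ones, 79_a and 73_a, and the gene-poor one, and 5 of the 7 libraries after αPD1 + αGITR lay above each IgG2a library. The difference was 2.02 (standard error 0.95, limma p = 0.0463, adjusted p = 0.217), and the two-sided exact permutation test gave p = 0.117. The call was kept in 4 of the 12 fits that left out 1 library and lost in the other 8, which are those without IgG2a library 79_a (difference 1.24, adjusted p = 0.329), without the gene-poor library (1.37, adjusted p = 0.442) and without any single αPD1 + αGITR library but 73_a. Its difference ran from 1.24 to 2.59 over these 12 fits, and the adjusted p ran from 0.139 to 0.669 over all alternatives. Without both macrophage-rich libraries the difference was 1.71 and no longer past the threshold (adjusted p = 0.212). Of the 11 alternatives other than leaving out 1 library, this one included, 7 lost the call. In the others of these 7 the difference was 2.02 both without the filter and with a mean above 10 TPM in every group, 1.77 with TMM-type factors, 1.00 at a pseudocount of 10, 1.10 after quantile normalization and 1.55 relative to the T cell genes.

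*Runx3*, on chromosome 4 from 135120652 to 135177990, encodes a RUNX factor best known from cytotoxic T cells. In GBM it stood at 43.1, 34.7, 42.0, 31.4 and 0.11 TPM after IgG2a and from 24.1 to 113 TPM (median 57.3) after αPD1 + αGITR. Apart from the gene-poor library the IgG2a libraries lay close together, and 5 of the 7 libraries after αPD1 + αGITR lay above all of them. The difference was 1.66 (standard error 0.80, limma p = 0.0502, adjusted p = 0.225, exact permutation p = 0.0530), and without the gene-poor library it was 0.63 (adjusted p = 0.480). The unadjusted threshold was passed in 6 of the 12 fits that left out 1 library. They are those without IgG2a libraries 76_a, 77_a, 78_a or 79_a or αPD1 + αGITR libraries 72_a or 73_a, with differences between 1.80 and 1.96 and adjusted p from 0.165 to 0.247. Of the 11 other alternatives *Runx3* passed it in 3 and not in 8. It passed with a pseudocount of 10 (1.00, adjusted p = 0.224), with the number of genes detected as a covariate (1.53, adjusted p = 0.169) and without the macrophage-rich libraries (2.00, adjusted p = 0.202). After quantile normalization it did not (1.05, adjusted p = 0.478).

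*Batf*, on chromosome 12 from 85686669 to 85709087, was listed at 53.3, 45.7, 20.7, 26.9 and 131 TPM in GBM after IgG2a and from 55.4 to 135 TPM (median 68.9) after αPD1 + αGITR. Only the gene-poor library among the IgG2a libraries reached into the range of the treated ones. The difference was 0.87 (standard error 0.51, limma p = 0.104, adjusted p = 0.307, exact permutation p = 0.0758). Without the gene-poor library it was 1.25 (adjusted p = 0.151) and past the unadjusted threshold, and the groups no longer overlapped. It was 0.49 (adjusted p = 0.683) with TMM-type factors and 0.40 (adjusted p = 0.757) relative to the T cell genes.

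*Zbtb32*, on chromosome 7 from 30589681 to 30598909, encodes a zinc finger repressor of cytokine genes in activated T cells. It is labelled in a plot of the study's own GBM comparison, so its direction here is not independent evidence. Its GBM libraries stood at 27.2, 24.8, 37.7, 15.4 and 1.36 TPM after IgG2a and from 14.0 to 103 TPM (median 34.05) after αPD1 + αGITR, and the groups overlapped. The difference was 1.25 (standard error 0.68, limma p = 0.0805, adjusted p = 0.273, exact permutation p = 0.0846) and was 0.56 without the gene-poor library, 0.44 after quantile normalization, 0.78 with a pseudocount of 10 and 0.78 relative to the T cell genes. It passed the unadjusted threshold without IgG2a library 78_a (1.57, adjusted p = 0.206) and without αPD1 + αGITR library 70_a (1.48, adjusted p = 0.290).

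For *Runx2* the difference in GBM was 0.83 (standard error 0.48, limma p = 0.0993, adjusted p = 0.302, exact permutation p = 0.0985). The 3 highest libraries, at 232, 328 and 323 TPM, were of mice given αPD1 + αGITR, and the others overlapped. *Nfil3* differed by 1.13 (standard error 0.78, adjusted p = 0.377), and by 0.35 without the gene-poor library. Without IgG2a library 77_a, which was high in both genes, *Runx2* (1.08, adjusted p = 0.216) and *Nfil3* (1.68, adjusted p = 0.218) passed the unadjusted threshold. *Runx2* was 0.52 (adjusted p = 0.416) without IgG2a library 79_a, 0.45 with TMM-type factors and 0.35 relative to the T cell genes, and *Nfil3* was 0.41 after quantile normalization, 0.67 with a pseudocount of 10 and 0.65 relative to the T cell genes. *Id2* had a difference of 0.20 (standard error 0.49, adjusted p = 0.810), which turned negative with TMM-type factors (-0.18), relative to the T cell genes (-0.27) and without 77_a (-0.09).

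*Bhlhe40*, *Irf4* and *Tox* were the factors with a lower mean in GBM after αPD1 + αGITR. *Bhlhe40* differed by -0.74 (standard error 0.55, limma p = 0.193, adjusted p = 0.410, exact permutation p = 0.0909), and 4 of the 7 libraries after αPD1 + αGITR lay below each IgG2a library. It passed the unadjusted threshold as lower after quantile normalization (-1.08, adjusted p = 0.262) and relative to the T cell genes (-1.22, adjusted p = 0.424). *Irf4*, on chromosome 13 from 30749226 to 30766976, the partner of BATF at composite sites, was listed at 1.84 to 56.5 TPM (median 10.1) after IgG2a, highest in the gene-poor library, and from 2.31 to 12.1 TPM after αPD1 + αGITR. *Irf4* passed the filter only through its mean after IgG2a (17.3 against 5.54 TPM), the group where it was high. Without the gene-poor library it did not pass. The difference was -0.81 (standard error 0.79, adjusted p = 0.523) and -0.18 without that library. *Tox*, on chromosome 4 from 6686353 to 6991557, a high mobility group factor of chronically stimulated T cells, stood at 170 TPM in the gene-poor library and between 11.2 and 40.9 TPM in the other GBM libraries. Its difference of -0.35 (standard error 0.65, adjusted p = 0.751) became 0.28 without that library.

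In splenic Treg cells the factors were compared between 7 libraries after IgG2a and 8 after αPD1 + αGITR. Only 6 of the 10 passed the filter on low values, and *Irf4*, *Prdm1*, *Bhlhe40* and *Nfil3* did not. Of these 6, 0 reached an adjusted p under 0.05 in limma, as for 0% of 6634 genes (lowest adjusted p = 0.449), and 0 passed the unadjusted threshold, beside 1.49% of genes higher and 1.04% lower. Over all genes 168 had an unadjusted p under 0.05, and the exact permutation test gave 0 after adjustment and 157 before it. Over all 10 factors the median difference was 0.53, beside 0.15 for all genes and 0.23 for the T cell genes. The differences of those tested were 1.64 for *Zbtb32* (standard error 0.92; adjusted p = 1 in limma and p = 0.131 by exact permutation), 0.93 for *Tox*, 0.71 for *Runx2*, 0.35 for *Id2*, 0.02 for *Batf* and -0.06 for *Runx3*. *Runx2* (16.1 against 5.66 mean TPM) and *Tox* (19.1 against 9.99) had passed the filter only through the αPD1 + αGITR group, where they were higher. As libraries were left out *Runx2* ran from 0.26 (without αPD1 + αGITR library 80_a) to 1.2 (without IgG2a library 79_b), *Id2* from 0.04 to 0.72 and *Tox* from 0.62 to 1.21, and *Runx2* was 1.58 with libraries of the same number averaged. The values of *Zbtb32* ran from 0 to 45.5 TPM after IgG2a, where 2 libraries were listed at 0 and 1 at 0.08, and from 0 to 57.1 TPM after αPD1 + αGITR. It passed the unadjusted threshold in the fits without IgG2a library 79_a or 79_b or αPD1 + αGITR library 70_c (2.00, 2.20 and 2.19) and with libraries of the same number averaged (2.78), at adjusted p from 0.946 to 0.999.

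The 2 splenic differences farthest from the spread between libraries belonged to factors under the filter. *Nfil3* was listed at 4.56, 3.80, 2.61, 4.45, 3.04, 1.88 and 2.40 TPM in the 7 spleens after IgG2a. After αPD1 + αGITR it was listed at 0.14, 0.70, 0, 0.98, 0, 0, 6.12 and 1.51 TPM (70_a, 70_b, 70_c, 72_b, 72_c, 73_a, 74_a and 80_a). Thus 7 of the 8 libraries after αPD1 + αGITR lay below each IgG2a library, and 74_a lay above all of them. The difference was -1.29 and the two-sided exact permutation test gave p = 0.00870, the lowest of the 10 factors in either tissue and not adjusted for the 20 such tests made. The test counted each library as independent, although several of them share a number. *Bhlhe40* ran from 0 to 9.67 TPM (median 3.57) after IgG2a and from 0.68 to 19.4 TPM (median 10.3) after αPD1 + αGITR, and 5 of the 8 lay above each IgG2a library, a difference of 1.49 (exact permutation p = 0.0488). In a limma fit of all 42883 genes without the filter, neither held after adjustment (adjusted p = 0.853 for both). The size of both moved with the pseudocount. For *Nfil3* it was -2.79 when 0.1 was added before the logarithm and -0.26 when 10 was added, and for *Bhlhe40* 2.50 and 0.54. The unknown depth limits what can be told apart there.

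Whether the response to αPD1 + αGITR differed between GBM and spleen was tested as the interaction over all 4 groups. No factor reached an adjusted p under 0.05, as for 0% of 8687 genes (lowest adjusted p = 0.119). At an unadjusted p under 0.05 with more than 2-fold change, which 1056 genes reached, *Nfil3* was the 1 factor with a positive interaction, beside 6.80% of genes, and *Bhlhe40* the 1 with a negative one, beside 5.35%. *Nfil3* was lower in the spleens (0.76 against 2.05 in mean log2(TPM + 1)) and had a higher mean in GBM (5.31 against 4.18) after αPD1 + αGITR, an interaction of 2.41 (standard error 0.99, adjusted p = 0.335). It no longer passed the unadjusted threshold without the gene-poor library (1.63, adjusted p = 0.682) and relative to the T cell genes (2.17, adjusted p = 0.791). *Bhlhe40* had a higher mean in the spleens (3.10 against 1.62) and a lower one in GBM (4.19 against 4.93), an interaction of -2.23 (standard error 0.95, adjusted p = 0.345). It passed the unadjusted threshold in each of the 27 fits that left out 1 library, and its adjusted p ran from 0.225 to 0.816 over the alternatives. Both factors entered this test only through their level in GBM, where they are high, since neither passes the filter in spleen. Their calls, and the repeats of them as libraries were left out, are therefore a description only. With a mean above 10 TPM asked for in every group neither was tested. Their interactions moved with the pseudocount, to 0.93 and 4.08 for *Nfil3* and -1.06 and -3.28 for *Bhlhe40* with 10 and 0.1. For *Runx2* the interaction was 0.11 (standard error 1.12, adjusted p = 0.977) and its sign depended on the setting.

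The partners and relatives of the factors are 27 genes that encode proteins which dimerize with them, are inhibited by them or share their domains. The list was written with earlier results of these data known, so its counts are not independent evidence of a direction. In GBM 18 of them were tested, and after αPD1 + αGITR 4 were higher and 0 lower at the unadjusted threshold, beside 16.8% and 4.87% of all genes, with a median of 0.49 against 0.62 for all genes (-0.22 against 0.13 after quantile normalization, with 2 higher and 1 lower beside 6.64% and 7.67% of all genes). The 4 genes were *Cbfb*, the non-DNA-binding partner of RUNX proteins (16.4 against 3.13 mean TPM, difference 2.51, adjusted p = 0.106), *Irf2*, a relative of *Irf4* (42.3 against 10.3 mean TPM, difference 2.15, adjusted p = 0.0997), *Junb*, a partner of BATF (difference 1.97, adjusted p = 0.206), and *Irf8* (1.77, adjusted p = 0.193), which plasmacytoid dendritic cells and other cells also express. *Cbfb* had passed the filter only through αPD1 + αGITR, the group where it was high. The libraries of *Irf2* ran from 21.7 to 60.3 TPM after αPD1 + αGITR and from 1.24 to 15.7 TPM after IgG2a without overlap, beside 1.77% of all genes. The exact permutation test gave the smallest p that 7 against 5 libraries allow, 0.00126. This p follows from the lack of overlap and adds nothing to it, and after adjustment the permutation test gave 0 genes. In spleen 12 were tested and 1 was higher, *Jun* (difference 2.84, adjusted p = 1), beside 1.49% of all genes. Between tissues 0 of 16 passed an adjusted p under 0.05 after IgG2a, where 0.488% of genes were higher and 0.0813% lower in GBM. There 1 was lower after quantile normalization (beside 0.596% of all genes) and 1 relative to the T cell genes (beside 0.244%). With TMM-type factors 1 was higher and 1 lower, beside 0.786% and 0.176%. After αPD1 + αGITR, where 15.8% of genes were higher and 1.61% lower, 3 of 14 were higher in GBM and 1 was lower (1 and 2 after quantile normalization, beside 5.90% and 8.67% of all genes, and 0 and 2 relative to the T cell genes, beside 0.600% and 11.9%). *Fosl2*, an AP-1 subunit, was higher at 35.2 against 2.96 mean TPM (difference 3.80, adjusted p = 0.000745), *Zbtb7b* and *Irf8* were higher by 1.77 and 1.69, and *Id3*, the relative of *Id2*, was lower at 14.7 against 50.5 mean TPM (difference -2.16, adjusted p = 0.0394). *Fosl2* and *Zbtb7b* had passed the filter only through GBM, the group where they were high. In the interaction 1 of 18 passed the unadjusted threshold (*Jun*, -3.63, adjusted p = 0.325), beside 5.35% of all genes with a negative interaction.

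The effector Treg programme was followed by a list of receptors, effector molecules and a few transcription factors (*Gata3*, *Ikzf2* and *Maf*) of activated Treg cells. The list was written with results of these samples known, and the study names several of its receptors on these samples, so its counts are not independent evidence of a direction. Between tissues after IgG2a 8 of 26 tested genes were higher at an adjusted p under 0.05 and 0 lower, beside 0.488% of all genes higher (median 2.94, against 0.48 for all genes), and after αPD1 + αGITR 21 of 26 were higher and 0 lower, beside 15.8% of all genes higher (median 3.31, against 0.95). The split over all genes moved with the scaling. After quantile normalization 0.786% of all genes were higher and 0.596% lower after IgG2a, and 5.90% and 8.67% after αPD1 + αGITR, while 11 and 18 of the 26 listed genes were higher. Relative to the T cell genes 0.122% and 0.244% of all genes were higher and lower after IgG2a, and 0.600% and 11.9% after αPD1 + αGITR, while 4 and 11 of the 26 were higher. None of the 26 was lower under these scalings. *Gzmb*, a granule protease, had the largest difference in both (7.52, adjusted p = 4.73e-07, and 6.67, adjusted p = 1.84e-07). It was followed by the inhibitory receptors *Lag3* (4.98, adjusted p = 0.0226) and *Tigit* (4.94, adjusted p = 0.00332) after IgG2a, and by the chemokine receptor *Ccr8* (4.49, adjusted p = 0.000402) and *Entpd1*, which encodes the ectonucleotidase CD39 (4.29, adjusted p = 0.000235), after αPD1 + αGITR. Within GBM 3 of 26 were higher after αPD1 + αGITR at the unadjusted threshold and 0 lower beside 16.8% and 4.87% of all genes, with a median of 0.43 against 0.62 for all genes (-0.04 against 0.15 relative to the T cell genes, with 2 higher and 1 lower beside 2.68% and 8.32% of all genes). The 3 genes were *Entpd1* (2.93, adjusted p = 0.0977), *Klrg1* (1.83, adjusted p = 0.104) and *Gata3* (1.35, adjusted p = 0.138), and the groups of *Entpd1* and *Gata3* did not overlap, beside 1.77% of all genes. In spleen 2 of 19 were higher, *Lag3* (3.89, adjusted p = 0.449) and *Pdcd1* (1.70, adjusted p = 1), beside 1.49% of all genes. In the interaction 1 of 26 was positive, *Entpd1* (3.51, adjusted p = 0.314), and 2 were negative, *Lag3* (-3.17, adjusted p = 0.345) and *Nt5e* (-2.41, adjusted p = 0.356), beside 6.80% and 5.35% of all genes. Of the 10 factors of resting T cells, 1 of 5 tested in GBM passed the unadjusted threshold as higher after αPD1 + αGITR, beside 16.8% of all genes. This was *Myb* (difference 1.62, adjusted p = 0.219), and 0 of 5 passed it under each of the other scalings. In spleen 0 of 7 passed, but 1 of 7 was lower with TMM-type factors and 1 of 7 relative to the T cell genes, beside 2.26% and 1.12% of all genes. In the interaction 1 of 7 was positive, *Klf2* (2.87, adjusted p = 0.328), beside 6.80% of all genes. Between tissues 0 of 6 passed an adjusted p under 0.05 after IgG2a, and 1 of 6 was lower in GBM after αPD1 + αGITR, beside 1.61% of all genes. This was *Tcf7*, a factor of resting and memory T cells (6.23 against 29.7 mean TPM, difference -2.70, adjusted p = 0.00685). After quantile normalization 3 and 4 of the 6 were lower in GBM, beside the shares of all genes given above.

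The pattern of *Runx2* over the 4 groups was compared with that of 8687 genes by the root mean square difference of their centred group means in log2(TPM + 1). The 3 nearest genes were *Plac8* (0.179), *Gm6637* (0.287) and *Nkg7* (0.295). *Nkg7*, a cytotoxic granule gene that T cells and NK cells both express, went from a mean of 2.37 and 3.66 in the spleens to 6.86 and 8.05 in GBM, after IgG2a and αPD1 + αGITR. Of the NK cell genes, *Ncr1* and *Klrd1* had a median of 0 TPM in each group, with *Klrd1* reaching 17.4 TPM in 1 spleen, and *Klrb1c* had medians of 0 TPM in GBM and of 0.34 and 0.87 TPM in spleen. The nearest of the other 9 factors was *Id2*, at 0.901. These distances rest on 4 group means and are a description.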

How the data were processed

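Bulk RNA of sorted Treg cells was sequenced by the authors with the Smart-Seq2 protocol on a NextSeq500 instrument, aligned to mm10 with Tophat and quantified with RSEM. TopHat2 and bcl2fastq are named in the submitters' processing notes, without versions. In the deposited table each of 53801 features is given as TPM with 1 added, which was taken off. Of 28 libraries described 27 were used, and 1 column of values without a name was not used. The labels state that each spleen or tumor came from a different mouse, but titles share numbers, so libraries of 1 number may not be independent. The 7 splenic libraries after IgG2a carry 4 numbers and the 8 after αPD1 + αGITR carry 5. The study gives n = 5 for IgG2a and n = 7 for αPD1 + αGITR in its RNA-seq, fewer than the splenic libraries. Except where numbers were averaged or blocked, tests counted each library. Groups were compared by linear models in limma 3.58.1 (R 4.3.3; eBayes moderation allowed a trend with level) on log2(TPM + 1), pseudocount 1, restricted to genes whose TPM averaged over 10 in either group, two-sided, with Benjamini-Hochberg adjustment over all genes tested. *Cbfb* and *Myb* in GBM and *Jun* and *Lag3* in spleen passed this filter only through αPD1 + αGITR, the group where they were high. Between tissues *Fosl2*, *Gzmb* and, after IgG2a, *Lag3* passed it only through GBM, and *Tcf7* only through spleen. Only the 2 groups compared entered a fit, and the interaction used all 4. The 10 factors were compared by exact permutation too, two-sided (smallest p 0.00126 in GBM and 0.000155 in spleen). Fold changes on this scale understate those of low genes. Standard errors of the differences between tissues come from the spread within both groups. The named genes are the 10 factors, of each list the 3 genes with the largest change past the call used (*Irf8*, beyond them, was named after its values were seen), and the 3 genes nearest to *Runx2*. The members and lists were chosen with earlier results of these data known. Positions are from GENCODE M21 on GRCm38 and promoter windows from RefSeq, GRCm38.p6. The fits were tested on simulated data. Alternatives tried were pseudocounts of 0.1 and 10, dropping the filter, asking for 10 TPM in all groups, limiting the CV to 1, quantile normalization, TMM-type factors, libraries of the same number averaged, the number of genes above 1 TPM as a covariate, a block for that number and each library left out. Leaving out the macrophage-rich GBM libraries (above 1000 TPM of marker genes) or the spleens low in T cell markers (under 500 TPM), and levels relative to 4 T cell genes, were chosen after seeing the data.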

Additional observations from a re-analysis of the deposited data

Results flagged for a closer look

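Of 40 sets of values, 1 for each factor in each group, 7 held a library whose distance from its nearest neighbour was large for the range of its group on the log2(TPM + 1) scale, where chance gives about 1 in 20. In the spleens after IgG2a, *Runx2* stood at 28.67 TPM in 79_b. In the spleens after αPD1 + αGITR, *Runx3* was listed at 0.00 TPM in 72_b, *Zbtb32* at 0.00 TPM in 70_c and *Nfil3* at 6.12 TPM in 74_a. In GBM after IgG2a, the gene-poor library was far from the rest in *Runx3* (0.11 TPM) and *Tox* (169.60 TPM). In GBM after αPD1 + αGITR, *Nfil3* stood at 6.97 TPM in 70_b.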

How the results depend on the processing

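In no alternative did a factor reach an adjusted p under 0.05 in limma in either tissue or in the interaction. Depth is unknown, so the counting error of factors listed at a few TPM, as *Nfil3* and *Bhlhe40* in spleen, could not be estimated. The cause of the changes below was not tested. In GBM the number of factors past the unadjusted threshold, 1, became 0 without the filter, with a mean above 10 TPM in every group and with TMM-type factors, and 2 with the number of genes detected as a covariate, and it ran from 0 to 4 as libraries were left out. The share of all genes higher at that threshold was 16.8%, and 4.05%, 14.2%, 12% and 18.4% under these 4 settings, and it ran from 10.9% to 20.9% as libraries were left out (17.4% without IgG2a library 77_a, the fit with 4 factors). Where the count stayed at 1, the gene was not always *Prdm1*, being *Runx3* with a pseudocount of 10 or without the macrophage-rich libraries and *Bhlhe40* after quantile normalization or relative to the T cell genes. The median difference became 0.42 after quantile normalization, 0.47 with TMM-type factors, 0.47 without the gene-poor library and 0.38 relative to the T cell genes. The number of factors without overlap ran from 0 to 1 as libraries were left out, and the share of all genes without overlap was not counted in those fits. *Id2* became -0.18 with TMM-type factors and -0.27 relative to the T cell genes (-0.09 to 0.44 as libraries were left out), and *Tox* ran from -0.65 to 0.28. In spleen the number past the threshold, 0, became 2 without the filter and 1 with libraries of the same number averaged, and ran from 0 to 2 as libraries were left out (of all genes 0.935% were higher and 0.443% lower without the filter, 1.69% and 1.19% with numbers averaged, and 1.00% to 2.43% higher without a library), and the number without overlap ran from 0 to 1 (*Nfil3*, without αPD1 + αGITR library 74_a). For treatment in spleen the share of all genes without overlap was not counted. The median in spleen, 0.53, became 0.26 with a pseudocount of 10, 0.35 after quantile normalization, 0.33 with TMM-type factors and 0.30 relative to the T cell genes. *Batf* in spleen became -0.06 after quantile normalization, -0.24 with TMM-type factors, -0.21 relative to the T cell genes and -0.20 without the spleens low in T cell markers (-0.25 to 0.40 as libraries were left out). *Runx3* in spleen became 0.15 with a pseudocount of 10, 0.06 with numbers averaged, 0.39 with the covariate and 0.61 without the spleens low in T cell markers (-0.26 to 0.49), and *Id2* became -0.15 after quantile normalization. Between tissues after IgG2a the median became 0.98 with a pseudocount of 10 and 0.49 relative to the T cell genes, beside 0.31 and -0.87 over all genes. The number without overlap became 1 relative to the T cell genes and ran from 3 to 5 as libraries were left out (5 without the gene-poor GBM library). After αPD1 + αGITR the median and this number were 0.13 and 0 relative to the T cell genes and 1.06 and 2 after quantile normalization. The medians over all genes were then -0.63 and 0.15. The share of all genes without overlap was not counted in these alternatives, so nothing is read from the numbers without overlap. In the interaction the number past the threshold, 2, became 1 with a pseudocount of 10 or relative to the T cell genes and 0 with a mean above 10 TPM in every group or a CV below 1, filters that *Nfil3* and *Bhlhe40* do not pass, and ran from 1 (without the gene-poor library) to 2, beside 3.32% to 9.71% of all genes positive and 4.11% to 6.64% negative as libraries were left out. *Runx2* became -0.01 with TMM-type factors, -0.65 with numbers averaged, -0.13 relative to the T cell genes, -0.03 without the macrophage-rich libraries and -0.34 without the spleens low in T cell markers (-0.38 to 0.56). *Id2* became 0.15 after quantile normalization and 0.00 without the macrophage-rich libraries (-0.52 to 0.16), and *Zbtb32* 0.12 with a pseudocount of 10.

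Libraries of both tissues share label numbers within a treatment. With these as a replicate block, the interaction of *Runx2* became -0.18, *Bhlhe40* was at -2.49 (adjusted p = 0.294) and *Nfil3* at 2.20 (adjusted p = 0.325). The last 2 passed the unadjusted threshold here too, but they entered the test only through their level in GBM, so this is a description only. GBM and splenic libraries of the same number did not deviate together from their group means (correlations from -0.159 to 0.182, over 0.1 for 1 of 9 numbers), so the numbers were not taken as pairs.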
